A study of Mus musculus with 2 samples.

Results

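Fgf4, Lefty1, Lefty2 and Gdf3 encode secreted signalling proteins made by pluripotent mouse cells. They were taken as the genes whose symbol in the platform annotation was 1 of these 4 names. All 4 were found, each read by 1 probe, among 11484 named genes on 13989 probes of a 1-colour oligonucleotide microarray. The array had been hybridised with RNA from 2 mouse cell samples, whose labels give an embryonic stage and the strain C57/ICR for each. The parental cells were at passage 1 and had been grown in medium with fetal bovine serum (FBS). The other sample, labelled as stem cells generated by a small molecule, was at passage 5 and had been grown in embryonic stem (ES) cell medium. Passage and medium therefore differed together with the treatment, and the labels used here give neither the compound nor its dose. The design text's name PEG cells was read as meaning the stem cell sample, since its other sample is the parental one. The series' design text speaks of 3 replicates, but the analysed table had 1 column for each sample. No value therefore has a replicate error, no test between the samples was possible, and precision is limited by the number of arrays. All folds compare the stem cells with the parental cells.

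FGF4, a fibroblast growth factor, binds FGF receptors together with heparan sulfate on the cell surface and starts the RAS to ERK kinase cascade. In ES cells that signal moves cells towards differentiation, and in the blastocyst it favours primitive endoderm and maintains trophoblast stem cells. GDF3, LEFTY1 and LEFTY2 belong to the TGF-beta superfamily. GDF3 is related to NODAL and uses the same EGF-CFC co-receptors, whereas the LEFTY proteins are antagonists that bind NODAL or its co-receptor, and their genes are themselves switched on by NODAL signalling. Transcription of Fgf4 in ES cells depends on an enhancer in its last exon that binds SOX2 and OCT4 together, and the Lefty1 promoter is also a known target of OCT4, SOX2 and KLF4.

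Of the 4 genes, 1, Fgf4, matched the RefSeq promoter table (build GRCm38.p6), and its promoter is shown as the sequence next to the widest difference among them. The 250 bases before the start of Fgf4, chr7:144861136-144861385 on the plus strand, are given 5′ to 3′ with capitals marking matches to GGGCGG (GC box), to CCAAT on either strand (CCAAT box), and to TATATA.
Fgf4 promoter: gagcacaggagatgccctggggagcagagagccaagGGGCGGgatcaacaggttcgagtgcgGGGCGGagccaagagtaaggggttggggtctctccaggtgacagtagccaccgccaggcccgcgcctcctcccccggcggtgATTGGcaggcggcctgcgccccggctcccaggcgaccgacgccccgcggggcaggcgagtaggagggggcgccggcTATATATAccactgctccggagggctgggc

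The window was rich in G and C, at 71.2% against a median of 52.4% over the 32851 promoters of the table. It held 2 GC boxes, beginning 214 and 188 bases before the start, and 32.7% of all promoters of this length had at least 1 on either strand. The CCAAT box, on the reverse strand as ATTGG, began 106 bases before the start, and 33.8% of promoters had a match. TATATA matched at 2 overlapping places, 30 and 28 bases before the start, and was present in 5.25% of promoters. The OCT4 octamer ATGCAAAT (1.6% of promoters) and the SOX core CATTGT (10.7%) had no match on either strand of this window, which says only that these letters are not in it. All 5 motifs were searched on both strands, and a match describes the letters, not a bound site.

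All 4 genes were brighter in the stem cells. The probe for Fgf4 read 39.7 in the parental cells and 18021 in the stem cells (linear intensity, arbitrary units). Values under the 25th percentile of their own column, 93.8 for the parental and 93.4 for the stem cells, were treated as dim, and that percentile is called the floor. Fgf4 was thus dim in the parental cells, and its fold is a lower bound, the stem cell value divided by the parental floor: at least 192-fold higher, or 7.59 on the log2 scale. Of the 9766 genes that exceeded the floor in either sample, 3, Fgf4 included, had a difference or a lower bound at least that large in this direction. Because these are whole-culture RNA samples, fewer cells of a type and less RNA per cell cannot be told apart.

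Lefty1 was clearly above the floor in both samples, unlike the other genes. Its probe read 226 in the parental cells and 3055 in the stem cells, a 13.5-fold difference (3.75 on the log2 scale). A difference or bound of that size or more was seen in 122 of the 9766 genes (1.25%). Lefty2, its paralog, read 36.7 in the parental cells and 389.7 in the stem cells, the lower value being under the floor. It was at least 4.16-fold higher (2.05 on the log2 scale), a size that 588 genes (6.02%) reached. Lefty1 and Lefty2 are close copies in sequence, and whether each probe separates the pair was not tested.

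Gdf3 read 100 in the parental cells, 1.07 times the floor, and 392 in the stem cells, 4.20 times the floor. Its difference was 3.92-fold (1.97 on the log2 scale), and 631 genes (6.46%) were as much higher or more. The parental reading of Gdf3 was so near the floor that its fold is little more than a bound. Fgf4 and Lefty1 were therefore far apart between the samples, whereas Lefty2 and Gdf3 had modest stem cell signals over parental readings near or under the floor.

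**Figure D1:**
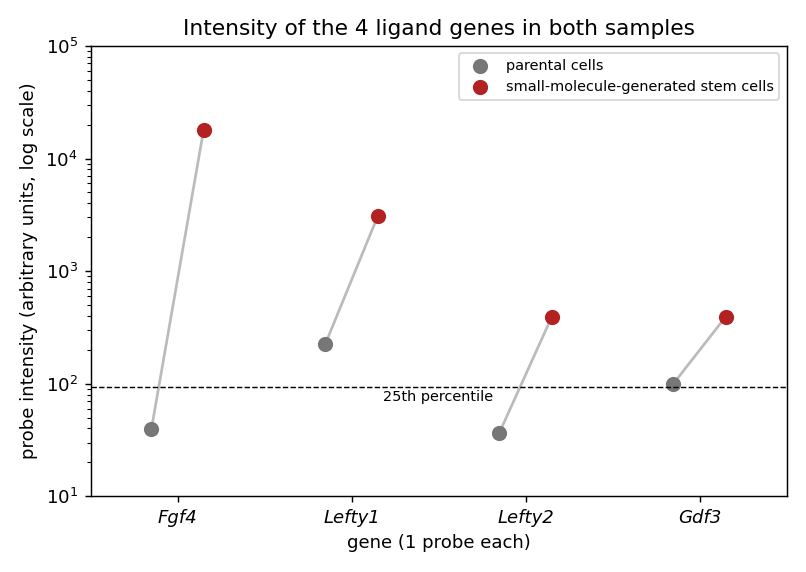
Probe intensity on a log axis for Fgf4, Lefty1, Lefty2 and Gdf3, 1 point per sample (grey, parental cells; red, stem cells), with a dashed line at the 25th percentile of the parental column. The red point is above the grey point for each gene, from 39.7 to 18021 for Fgf4 and from 100 to 392 for Gdf3.

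All 4 were past 2-fold, and 20.5% of the 9766 genes were 2-fold or more higher in the stem cells (2000 genes), with 20.8% lower (2034 genes). The 4 genes were chosen as products of pluripotent cells with earlier results of these data known, so their shared direction is a description. The median log2 difference over all genes was 0.10. At a stricter size of 4-fold, 3 of the 4 remained and Gdf3 did not. With the floor at the median of each column, Lefty2 (1.28-fold) and Gdf3 (1.29-fold) were no longer past 2-fold.

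How far a reading from 1 probe can be relied on was described from other genes. In 612 genes a pair of probes exceeded the floor, and the SD of a probe's log2 difference about the gene mean was 1.00, equal to 2.01-fold. Where a probe was 2-fold to 4-fold higher in the stem cells, the size of the Gdf3 difference, the other probe of that gene was 2-fold or more higher in 43.2% of 183 cases. For 4-fold to 8-fold, the size of the Lefty2 bound, this was 48.9% of 45, and for 8-fold to 16-fold, the size of the Lefty1 difference, 76.5% of 17. At 16-fold or more, where Fgf4 lies, 4 of 5 partners were higher by 2-fold and 1 was lower by 2-fold. The widest of these 5 readings was 6.06 on the log2 scale, so none reached the 7.59 bound of Fgf4. Each probe of a pair was taken in turn as a case. These shares cover disagreement between probes on the same arrays, not between cultures.

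**Figure D2:**
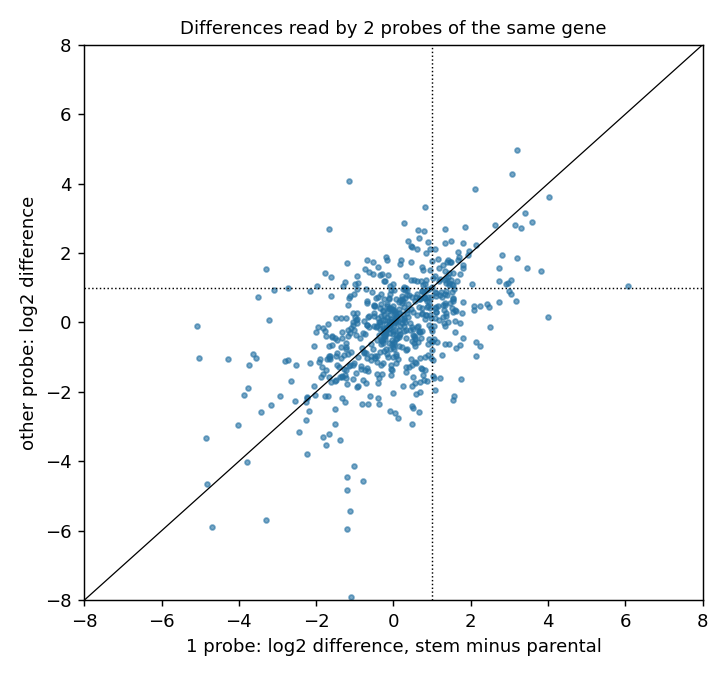
Log2 difference (stem minus parental) read by 1 probe against that read by the other probe of the same gene, 1 point for each of 612 genes, with the line of equality and dotted lines at 2-fold higher. Points scatter widely around the line, with an SD of 1.00 about the gene mean.

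Among the genes for proteins that bind these ligands directly, the measured ones had no common direction. Of 12 such receptor, co-receptor and partner ligand genes, 5 were measured. Of these 1 was 2-fold or more higher, 1 was lower, 2 differed by less and 1 was dim in both samples. Over all genes 20.5% were higher and 20.8% lower, so these counts are near the background. Acvr2b, the gene of a type II receptor for activin and NODAL, read 576 in the parental cells and 6052 in the stem cells, 10.5-fold higher. Its relative Acvr2a read 439 and 32.3, at least 4.70-fold lower, since the stem cell value was under the floor. Both type II receptor genes were thus above the floor in the parental cells, and of the pair only Acvr2b was above it in the stem cells. The EGF-CFC co-receptor gene Cfc1 was dim in both samples (39.7 and 81.2).

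Of the FGF receptor genes, the kinases Fgfr3 and Fgfr4 were measured close to the floor. Fgfr3 read 150 and 107, and Fgfr4 read 53.9 and 168, at least 1.79-fold higher, so neither passed 2-fold. Fgfrl1, a related receptor without a kinase domain, was well above the floor and 2.93-fold lower over its 2 probes (2125 and 725). Fgfr1, Fgfr2, Tdgf1 (the co-receptor Cripto), Acvr1b, Acvr1c, Nodal and Gdf1 were not analysed here. The main FGF receptors of ES cells and the NODAL ligand itself are therefore missing from this account.

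**Figure D3:**
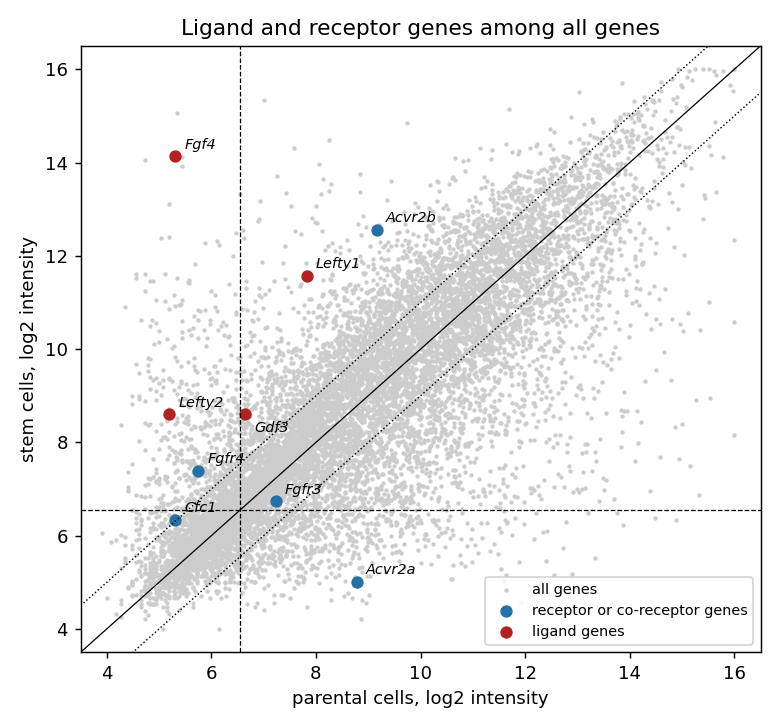
Log2 intensity in the parental cells (x) and the stem cells (y) of all 11484 genes in grey, the 4 ligand genes in red and the 5 measured receptor or co-receptor genes in blue. Dashed lines mark the floors and dotted lines a 2-fold difference. Fgf4 lies far above the 2-fold line at the left, Acvr2b lies above it and Acvr2a below it.

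The FGF family genes had no common direction. Of 12 measured, Fgf4 included, 2 were higher, 2 were lower, 3 differed by less than 2-fold and 5 were dim in both. The median log2 difference was -0.07 over the 7 that were not dim, Fgf4 among them. Over all genes 20.5% were higher and 20.8% lower. Of the 11 other than Fgf4, 1 was higher. Besides Fgf4 the higher gene was Fgf17, of the FGF8 subfamily, which read 39.7 and 909, at least 9.69-fold higher. Fgf13, an intracellular FGF homologue that is not secreted, was 6.40-fold lower (695 and 109). Fgf10, a mesenchymal ligand, was at least 2.96-fold lower (277 and 51). Fgf23 read 105 and 100.4, and Fgf21 read 106 and 47. Among these FGF genes Fgf4 had the largest difference.

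On the receiving side of FGF signalling, several syndecan and heparan sulfate genes were lower in the stem cells. Of 14 measured receptor, co-receptor and heparan sulfate genes none was 2-fold higher, 7 were lower and 7 differed by less, with a median of -1.06. The shares over all genes were 20.5% higher and 20.8% lower. The syndecan genes Sdc3 (3080.4 and 92.6, at least 33.0-fold) and Sdc2 (10816 and 548, 19.7-fold) were lower, as was Ext1, which encodes a polymerase of heparan sulfate (4043 and 700, 5.78-fold). Not all went this way: the syndecan gene Sdc4 (814 and 1427, 1.75-fold) and the heparan sulfate gene Hs6st1 (2169 and 4147, 1.91-fold) were higher by less than 2-fold. Kl, a co-receptor of endocrine FGFs, read 129 and 113. All 4 measured fibroblast and mesenchyme markers were also lower, with a summed intensity of 105708 for the parental and 433 for the stem cells, and their part in the result was not tested.

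Of 11 measured relay genes between receptor and ERK, 1 was higher, 2 were lower and 8 differed by less (median 0.24). Over all genes 20.5% were higher, 20.8% lower and 58.7% between, so these counts are near the background. Gab1, an adaptor that recruits PI3 kinase and SHP2, was 10.2-fold higher (281 and 2868). The RAF kinase gene Braf was 9.26-fold lower (3269 and 353) and Ptpn11, which encodes SHP2, was 2.12-fold lower (8518 and 4012). Nras read 1213 and 1223 and the adaptor gene Grb2 read 2167 and 2563.

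Of 7 measured genes known to respond to FGF and ERK signalling, 2 were higher, 3 were lower and 2 differed by less (median -0.34), where 20.5% of all genes were higher and 20.8% lower. The higher ones were the ETS factor genes Etv5 (1572 and 13196, 8.39-fold) and Etv4 (300 and 1929, 6.43-fold). The lower ones were Egr1 (17504 and 194, 90.4-fold), an immediate early gene, Fosl1 (940 and 282, 3.34-fold), an AP-1 subunit, and Ier3 (825 and 332, 2.49-fold). The feedback inhibitor genes Spry4 (461 and 365) and Spred2 (208 and 251) differed by less than 2-fold. Phosphorylated ERK was not measured, and serum and ES medium were on different sides of this comparison.

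**Figure D4:**
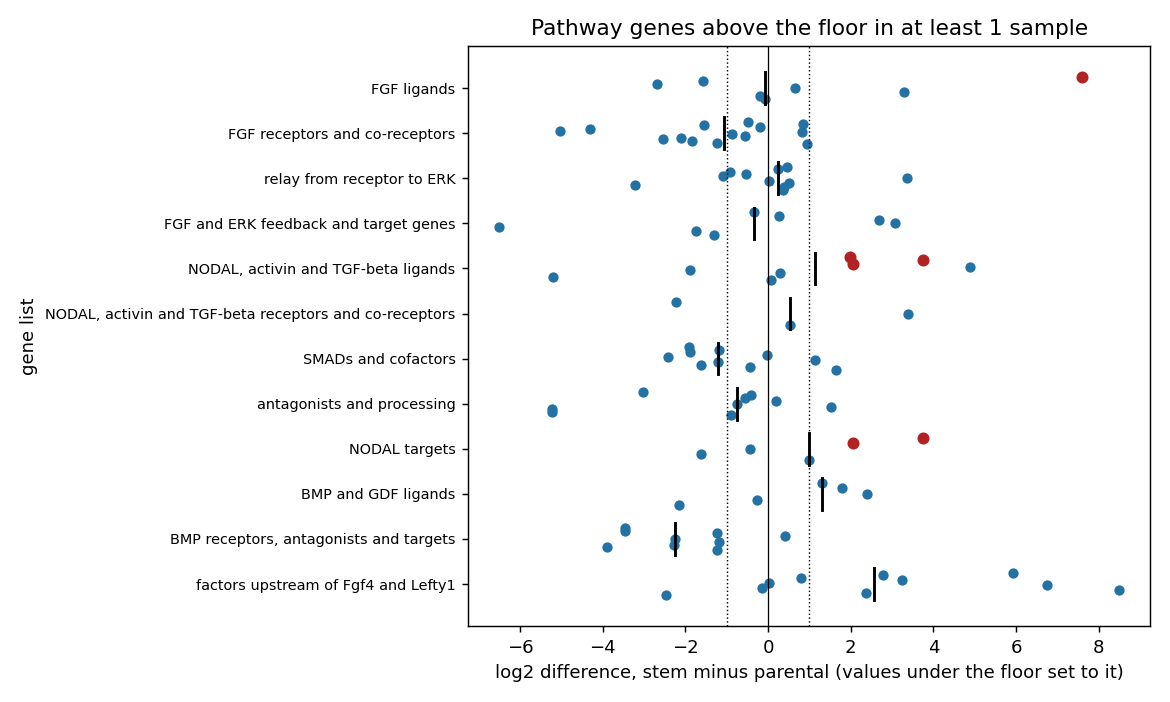
Log2 difference (stem minus parental) of each pathway gene that exceeded the floor in either sample, by list, with dim values raised to the floor. Red points are the 4 ligand genes, blue points other genes, black bars list medians (red points included) and dotted lines 2-fold. The factors upstream of Fgf4 and Lefty1 have the highest median, 2.57, and the BMP receptors, antagonists and targets the lowest, -2.25.

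The NODAL, activin and TGF-beta ligand genes, which include Gdf3, Lefty1 and Lefty2, went in both directions. Of 10 measured, 4 were higher, 2 were lower, 2 differed by less and 2 were dim (median 1.13). That median includes Gdf3, Lefty1 and Lefty2, which were chosen with earlier results known, so it is not separate from that choice. Among all genes 20.5% were higher and 20.8% lower. Without the 3 ligands under study, 1 of 7 was higher: Inhbe, the activin beta E subunit gene, at 125 and 3725, 29.7-fold. The genes for TGF-beta 3 (Tgfb3, 3447 and 64.4, at least 36.9-fold) and TGF-beta 1 (Tgfb1, 345 and 67.2, at least 3.69-fold) were lower. Tgfb2 read 503 and 613 and Mstn, the myostatin gene, 75.8 and 98.2. The receptor and co-receptor list had 4 measured genes, with Eng, the endoglin gene, at 715 and 1025 beside Acvr2a, Acvr2b and Cfc1 above (median 0.52).

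SMAD genes, which carry these signals to the nucleus, were mostly lower. Of 10 measured SMAD and cofactor genes 6 were lower, 2 were higher and 2 differed by less (median -1.20). Over all genes 20.8% were lower and 20.5% higher. The BMP-branch genes Smad5 (1414 and 266, 5.32-fold) and Smad1 (1753 and 466, 3.76-fold) and the NODAL-branch gene Smad3 (3594 and 970.4, 3.70-fold) were lower, while the shared Smad4 read 2088 and 2037. The corepressor genes Tgif2 (1836 and 5689, 3.10-fold) and Trim33, whose product binds SMADs (2487 and 5505, 2.21-fold), were higher, and Tgif1 read 4329 and 3184. The call for Trim33 was lost under another scaling of the columns, with a lowest log2 difference of 0.97.

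Of 12 measured antagonist and processing genes 1 was higher, 3 were lower, 5 differed by less and 3 were dim (median -0.76). The shares over all genes were 20.5% higher and 20.8% lower. Nomo1, whose product restrains NODAL signalling, was 2.88-fold higher (2175 and 6261). Ltbp2 (15264 and 406, 37.6-fold) and Ltbp3 (9327 and 250.1, 37.3-fold), both latent TGF-beta binding protein genes, and the follistatin-like gene Fstl3 (1005 and 124, 8.10-fold) were lower. Pcsk6, a convertase that cleaves NODAL precursors, read 862 and 992, and Inha, the inhibin alpha gene, 124 and 75.8. The NODAL antagonist genes Cer1 (54.9 and 49.7) and Dand5 (64.9 and 46.1) were dim in both samples, so of the measured antagonists that bind NODAL only the Lefty genes were above the floor.

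Apart from the Lefty genes, no measured NODAL target was higher by 2-fold at the main scaling. Of 7 measured, 2 were higher, which were Lefty1 and Lefty2 themselves, 1 was lower, 2 differed by less and 2 were dim (median 0.98). That median includes the Lefty genes, so it is not separate from their choice. Among all genes 20.5% were higher and 20.8% lower. Skil, a SMAD corepressor gene, was 3.09-fold lower (2616 and 846). Gsc, a homeobox gene of the organizer, read 353 and 261, and Lhx1, another, read 181 and 357, a 1.97-fold difference, and passed 2-fold (1.12 on the log2 scale) when each class of probe identifier was centred on its own median.

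In the BMP branch, on which GDF3 can act as an inhibitor, ligand genes and response genes differed in direction. Of 8 measured BMP and GDF ligands outside the 4 genes, 3 were higher, 1 was lower, 1 differed by less and 3 were dim (median 1.30). Bmp7 (24.4 and 490.6, at least 5.23-fold), Bmp4 (584 and 2036, 3.48-fold) and Bmp2 (954 and 2351, 2.46-fold) were the higher ones. Gdf10 was at least 4.43-fold lower (414 and 25.2), and Gdf5 read 288 and 241. Of 10 measured BMP receptors, antagonists and targets none was higher, 8 were lower, 1 differed by less and 1 was dim (median -2.25). For both lists the shares over all genes were 20.5% higher and 20.8% lower. The target gene Id3 (12091 and 813, 14.9-fold) and the type I receptor genes Acvrl1 (1023 and 80.6, at least 10.9-fold) and Acvr1 (2080.0 and 190.4, 10.9-fold) were lower, and so was Id1 (1029 and 453, 2.27-fold). The BMP antagonist gene Chrd read 723 and 968.

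Genes for factors known to act upstream of Fgf4 or Lefty1, or within the same network, were mostly higher. Of 10 measured, 6 were higher, 1 was lower and 3 differed by less (median 2.57). Over all genes 20.5% were higher and 20.8% lower. Sox2, whose product binds the Fgf4 enhancer, read 265 and 16129, 60.8-fold higher. Pou5f1, which encodes its partner OCT4, read 37.8 and 639, at least 6.82-fold higher. Utf1 (191 and 20475) and Esrrb (40.6 and 33968) were further apart between the samples, whereas Nanog read 77.7 and 94.7 and the coactivator gene Ep300 read 1137 and 1028. Tead1 was 5.57-fold lower (2923 and 525). Klf4 and Sall4 were not analysed here.

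Genes with the most similar pair of readings were found by the Euclidean distance between log2 intensities in the 2 samples, with dim values raised to the floor. Such a distance rests on 2 samples, mixes probe brightness with expression, and carries no statement on function. Nearest to Fgf4 were Fbxo15, which encodes an F-box protein (43.4 and 17816), Fam25c (26.4 and 17001) and Tfcp2l1, a factor of naive ES cells (43.4 and 15457). These were the 3 genes within 0.25 of it. Nearest to Lefty1 were the keratin gene Krt8 (210 and 2711), Tcea3 (223 and 3674) and Stmn2 (206 and 2602), with 1 gene within 0.25. Lefty2 was nearest to Zfp750 (82.4 and 389.7), Dnajb6 (75.8 and 391) and Bnipl (61.7 and 387). Gdf3 was nearest to Dnajb6, Kif5a (62.9 and 394) and Lefty2. Within 0.25 lay 70 genes for Lefty2 and 69 for Gdf3, so their pattern was a common one and that of Fgf4 and Lefty1 was rare.

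Few of the genes on either side of the 4 were measured, too few to show whether a block shared a direction. Gene order was taken from RefSeq (GRCm38.p6), 5 genes each way, with no coordinates compared. Over all genes 20.5% were higher and 20.8% lower, so counts among so few genes cannot be told from the background. Around Fgf4 on chromosome 7, 4 of 10 neighbours were measured, of which none was 2-fold higher and 1 was lower. Around Lefty1 and around Lefty2, 3 of 10 were measured each. Its adjoining paralog Fgf3 was dim (50 and 62.3), Fgf15 read 69 and 146, LTO1 read 563 and 675, and the chloride channel gene Ano1 was at least 2.94-fold lower (274 and 44.1). Lefty1 and Lefty2 lie near each other on chromosome 1, with 3 genes between them, and each is the other's higher neighbour. Beyond Lefty1, Tmem63a (2832 and 1212, 2.34-fold) and the epoxide hydrolase gene Ephx1 (5574 and 422, 13.2-fold) were lower, and on the side of Lefty2, Sde2 read 2543 and 4591, 1.81-fold. Of the 10 neighbours of Gdf3 on chromosome 6, 0 were analysed here.

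Markers of cell types were read beside these results. Of 7 measured pluripotency markers 6 were higher and none lower, where 20.5% of all genes were higher and 20.8% lower. Their sums of intensity were 687 for the parental and 90642 for the stem cells. Sox2, Pou5f1, Nanog, Utf1 and Esrrb are also in the list of upstream factors, and Fbxo15 was named above as nearest to Fgf4. This marker count therefore largely repeats readings already given and is not separate support for them. The fibroblast and mesenchyme markers were given beside the syndecan genes. Of 6 macrophage markers 3 were lower and 1 higher (sums 7496 and 13142, or 6209 and 939 without Laptm5, the higher gene, left out after its value was seen). Of 4 trophoblast markers 3 were higher and none lower (sums 1091 and 2421). Ascl2 was at least 3.58-fold higher. Krt7 (2.01-fold) and Hand1 (2.19-fold) were just past 2-fold, about the size of the SD between probes given above. Of 5 primitive endoderm markers 1 was lower, 1 differed by less and 3 were dim (sums 2183 and 817). Of 3 primed epiblast and early mesoderm markers none passed 2-fold and 2 were dim (sums 424 and 344). No marker was at 0, since the lowest values of the columns were 15 and 16. The part of a changed mixture of cells in the ligand readings was not tested.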

How the data were processed

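Total RNA had been extracted with Trizol and RNeasy columns, amplified and coupled to Cy5, then applied to a Phalanx OneArray v2 for the whole mouse genome, per the labels' protocols. The values deposited by the authors are probe intensities on a linear scale. For the scanner, background correction, normalisation and any averaging of replicates, the sources used here give no method. Column medians were 304 and 305. A normalisation that makes arrays this alike would remove a difference in total signal.

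Gene symbols came from the platform annotation and were updated through Entrez identifiers with the RefSeq table (12364 of 12380 named probes matched, 1609 probes had no symbol). Probes of a gene were averaged as log2 values. A gene was dim at or under the 25th percentile of a column. A value under it was set to it, which makes the fold a lower bound, and genes dim in both samples were given none. With 1 sample per group no p-value was computed. The members and lists were chosen with earlier results of these data known. Named from each list were up to 3 genes each way with the widest difference past 2-fold and the 2 closest to none, besides binding partners, nearest genes and neighbours. The exceptions, named after their values were seen, are Cer1, Dand5, Pou5f1, Fgfrl1, Sdc4, Hs6st1, Laptm5, Ascl2, Krt7 and Hand1. The computation (Python 3.11.15, pandas 2.3.3, statsmodels 0.14.6) was tested on simulated data. Those data had less noise than the pairs of probes showed, so the test checks the code and not the precision of these readings. Alternatives were other scalings, floors, offsets, probe rules and size rules.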

Additional observations from a re-analysis of the deposited data

How the results depend on the processing

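Of the 44 recomputed values of the 4 genes, some were fixed in advance. Taking the brightest probe could not move genes with 1 probe each, and setting dim values to the floor was the main rule itself. None of the 44 changed direction, and Lefty1 stayed between 3.33 and 3.78 on the log2 scale under every alternative run. The wider shifts of the other genes follow from where the floor is set. With the floor at the median of each column, the bound fell to 5.89 for Fgf4, 0.36 for Lefty2 and 0.37 for Gdf3, so that the last 2 were no longer past 2-fold. With no floor, and with differences of the deposited values over the same genes (chosen after seeing the data), Fgf4 was at 8.83 and Lefty2 at 3.41. For these 4 genes the latter setting repeats the former. A 4-fold rule left 617 genes higher and 894 lower, and 20 of the 36 lower pathway genes. Centring by lowess moved the median log2 difference of all genes from 0.10 to -0.01. Under the 4 other scalings, 1 of 58 called pathway genes, Trim33, lost its call and none changed sign. Median centring and quantile normalisation, which are among these 4, could change little in columns this alike. Of 37 pathway genes under 2-fold, 4 (Gpc1, Lhx1, Ltbp4 and Sos2) passed it under at least 1 of these scalings and 3 (Mstn, Nanog and Nras) changed sign. Of 288 recomputed list counts, which include those of the main rule repeated, 265 stayed within 1.5 times. The probe classes centred separately were also added after seeing the data. No replicate could be left out, with 1 sample per group. No paired analysis was possible either, because 1 column per group leaves 1 difference for each gene and no spread.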
